A study of Mus musculus with 6 samples.

Results

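Transcription regulators of olfactory sensory neurons were followed across single cells: Ebf1, Ebf2, Ebf3, Ebf4, Lhx2, Ldb1, Emx2, Nfia, Nfib and Nfix. The 10 genes were taken by name from a count table of 55341 genes, and 10 of 10 were present in it. Each of the 6 samples was 1 olfactory sensory neuron from the olfactory epithelium of 6-week-old C57BL/6 mice, wild type per the series' design, and each was sequenced as a separate CEL-Seq2 library (cells 1 to 6). In CEL-Seq2, RNA is copied from its poly(A) tail and each molecule receives an identifier. The neurons were frozen one by one after physiological recording. All cells form 1 group, and the labels name no animals, so differences between cells have no replicate check.

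The EBF proteins, also known as Olf or O/E factors, bind sites in the promoters of many genes of the olfactory neuron and in odorant receptor promoters and enhancers. Lhx2, a LIM homeodomain factor, binds beside them, and Ldb1 is the adaptor that joins LIM homeodomain proteins bound at distant enhancers. Emx2 is a homeodomain factor needed for normal expression of many receptor genes. The NFI factors Nfia, Nfib and Nfix act in ventral zones of the epithelium, where they take part in zonal receptor choice.

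Short stretches of promoter show the letters these factors are known to recognise. An 8-base EBF core (CCCNNGGG), the longer EBF palindrome that contains it, a homeodomain core (TAATTA) and the full NFI palindrome were searched in RefSeq promoters of GRCm38.p6, 250 bases before to 50 after each start. Each motif equals its own reverse complement, so 1 search covers both strands. The table held 15 promoters of 8 members, without Ebf2 and Nfib. Capitals mark the match, and each stretch is printed 5′ to 3′ on the strand of the gene.
Cnga2, a gene of the odour transduction channel with a known EBF site, chrX:71991756-71991817, plus strand: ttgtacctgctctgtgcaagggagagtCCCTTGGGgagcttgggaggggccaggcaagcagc
Ebf3, a member with an EBF core just before its own start, chr7:137314446-137314493, minus strand: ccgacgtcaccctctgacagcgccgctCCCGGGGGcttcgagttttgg
Olfr740, the receptor gene with the most counts in cells 1 and 2, with a homeodomain core, chr14:50452909-50452968, plus strand: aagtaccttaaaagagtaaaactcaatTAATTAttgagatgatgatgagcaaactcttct

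The match began 66 bases before the start in Cnga2, 21 in Ebf3 and 118 in Olfr740. None of the 4 motifs was found in either of 2 promoters of Adcy3, another gene with a known EBF site, or in the promoters of the receptor genes Olfr742 and Olfr743. Among members, CCCNNGGG was found in a promoter of Ebf3, Lhx2 and Ldb1, TAATTA in a promoter of Emx2 and Nfix, and the longer palindromes in none. Over 32851 promoters of this length, CCCNNGGG occurred in 13.7%, the longer EBF palindrome in 0.904%, TAATTA in 5.29% and the NFI palindrome in 0.0365%. In the 948 promoters of Olfr genes the shares were 3.06%, 0.527%, 18.6% and 0%, in the same order. Olfr promoters had a median GC content of 35.0%, against 52.7% over all promoters, and the part of base composition in these shares was not tested. These are matches of letters only, since no binding was measured.

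The libraries differed widely in depth. Totals ran from 8613 counts in cell 1 and 11725 in cell 6 to 122546 in cell 3, so 1 count stood for 116 CPM (counts scaled to a common library total) in cell 1 but for 8.16 CPM in cell 3. Genes with a count numbered 2855 to 11670 per cell. Mature olfactory neuron markers summed to 13541 to 26704 CPM, with 7 of 7 genes found, although Cnga2 and Rtp1 were at 0 in cell 6. Basal cell markers (3 genes) were at 0 in every cell. Sustentacular cell markers reached 696 CPM in cell 2 and at most 171 CPM elsewhere, while gland markers spanned 0 CPM (cell 6) to 19810 CPM (cell 2) and red blood cell markers 171 CPM (cell 6) to 12610 CPM (cell 4). Mitochondrial genes took 4.40% to 14.4% of counts.

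Together the 10 genes had 661 counts, of which 321 came from cell 3. Their summed level had a median of 2687 CPM, a minimum of 1987 CPM (cell 4) and a maximum of 3326 CPM (cell 6). A count was found in all 6 cells for 5 members (Ebf1, Ebf2, Ebf3, Lhx2 and Nfib), in 5 cells for Ebf4 and Nfix, and in 4 cells for Ldb1, Emx2 and Nfia. Of the 60 values, 8 were 0, and 7 of these were in cells 1 and 6. Cells 3, 4 and 5 had a count of all 10 members, cell 2 of 9, cell 1 of 7 and cell 6 of 6. At an equal depth of 8613 counts, 7, 7.06, 6.97, 6.85, 8.29 and 5.66 members would be expected to show a count in cells 1 to 6.

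**Figure D1:**
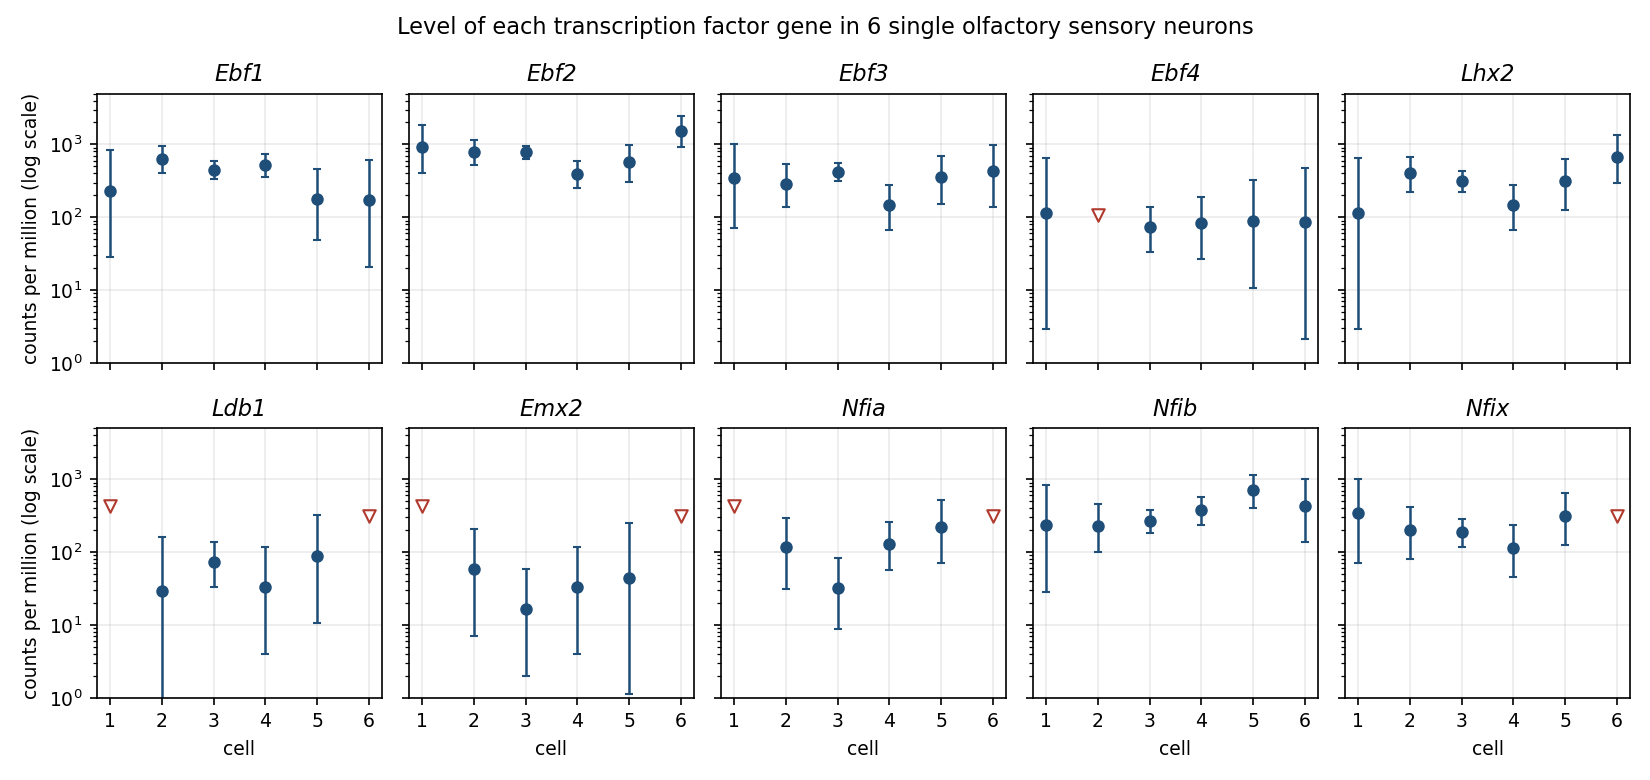
Level of each gene (vertical, CPM on a log scale) in cells 1 to 6 (horizontal). Points are the measured values and bars the exact 95% Poisson intervals, which cover counting error only; open triangles mark the upper Poisson bound of a cell with no count, and bars that reach the bottom axis continue below it. Ebf2 lies between 394 and 1535 CPM, and cells 1 and 6 have the widest bars.

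Ebf2 was the most abundant of the 4 EBF genes at the median cell and the 91st most abundant of all genes by median CPM. It had 8, 27, 96, 24, 13 and 18 counts in cells 1 to 6, or 929, 783, 783, 394, 577 and 1535 CPM. Cell 6 was highest, with a 95% Poisson interval of 910 to 2426 CPM, and cell 4 lowest, with 252 to 586 CPM, so these intervals did not overlap. The ratio of cell 6 to cell 4 was 3.90 (95% interval 1.99 to 7.49). Cell 3 was also above cell 4, by 1.99 times (1.26 to 3.25).

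Ebf1, the founding member of the family, ran in another order. It had 2, 22, 55, 32, 4 and 2 counts in cells 1 to 6, or 232, 638, 449, 525, 178 and 171 CPM. Cells 2, 3 and 4 were high, and cells 1, 5 and 6 were low, the last 3 with 4 counts or fewer. Cells 2, 3 and 4 were also the deepest libraries, and the part of depth was not tested. Cell 2 exceeded cell 5 by 3.59 times (1.22 to 14.3), and cell 4 exceeded cell 5 by 2.96 times (1.05 to 11.5). The intervals of the other 13 pairs included 1.

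Ebf3 had 3, 10, 52, 9, 8 and 5 counts, or 348, 290, 424, 148, 355 and 426 CPM. It lay between 290 and 426 CPM in 5 cells and was lowest in cell 4. The single pair beyond counting error was cell 3 over cell 4, at 2.87 times (1.40 to 6.63). Ebf4 was low throughout, with 1, 0, 9, 5, 2 and 1 counts and a median of 83.7 CPM. Its 5 nonzero values lay between 73.4 and 116 CPM. In cell 2, where it had no count, 2.74 counts would be due at the summed level of the other cells, so a lower level was not detectable there.

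Because depth and RNA from cells that lack EBF genes cancel within a family, each gene's share of EBF counts was computed in each cell. Ebf2 had a median share of 47.0%, from 34.3% in cell 4 (24 of 70 counts, 95% Clopper-Pearson interval 23.3% to 46.6%) to 69.2% in cell 6 (18 of 26, 48.2% to 85.7%). It led in 5 of 6 cells. In cell 4 Ebf1 led with 45.7% (32 of 70, 33.7% to 58.1%), while its share was 7.69% in cell 6 (2 of 26, 0.946% to 25.1%). Ebf3 held 12.9% to 29.6% and Ebf4 0% to 7.41%.

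**Figure D2:**
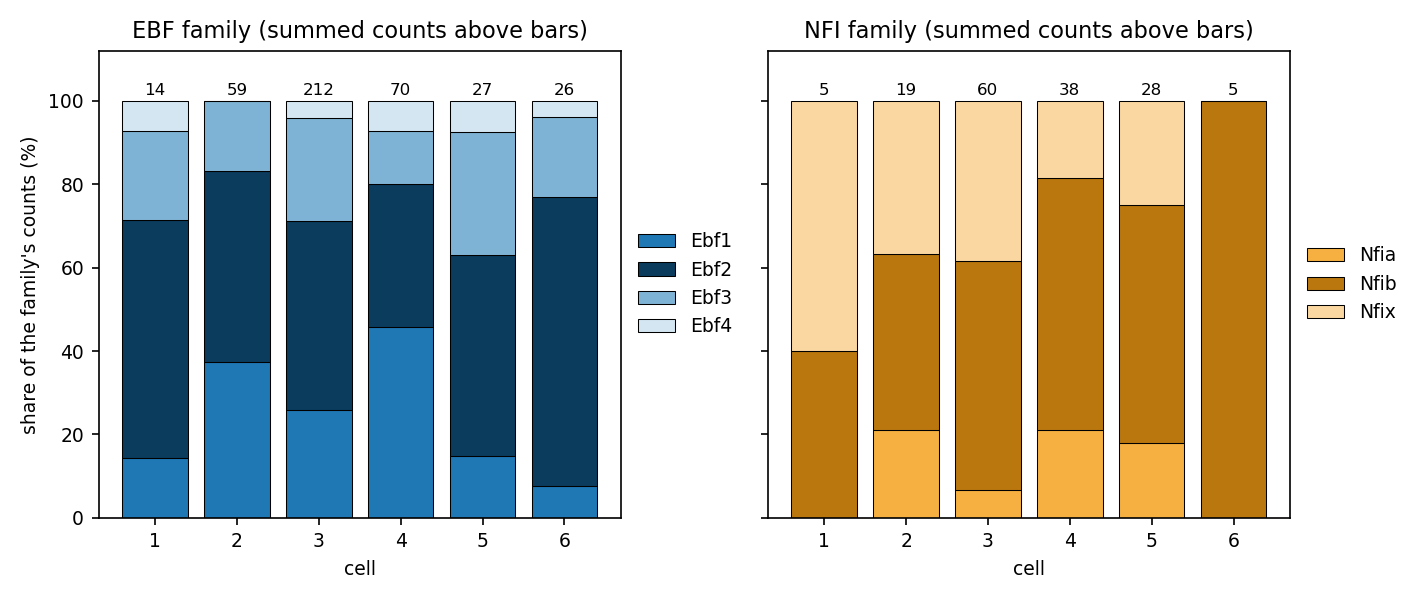
Share of each gene (vertical, %) in the summed counts of its family in cells 1 to 6 (horizontal), with the summed counts above each bar. Ebf2 holds 34.3% to 69.2% of EBF counts, and the NFI bars of cells 1 and 6 rest on 5 counts each.

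The ratio of Ebf1 to Ebf2 counts within a cell was 0.250, 0.815, 0.573, 1.33, 0.308 and 0.111 in cells 1 to 6. Cells 4 and 2 were high and cell 6 was low. Of 15 pairs of cells, 5 differed beyond counting error. The ratio in cell 4 exceeded that in cell 6 by 11.6 times (95% interval 2.42 to 113), that in cell 5 by 4.25 times (1.13 to 20.2) and that in cell 3 by 2.32 times (1.19 to 4.57). Cell 6 was also exceeded by cell 2, at 7.15 times (1.45 to 70.3), and by cell 3, at 5.12 times (1.16 to 47.2). Among cells 2 to 5, which have over 20000 counts, 2 of 6 pairs differed. By contrast, no interval for Ebf3 over Ebf2 left out 1 in 15 pairs, although most are wide.

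Lhx2 had 1, 14, 38, 9, 7 and 8 counts in cells 1 to 6, or 116, 406, 310, 148, 311 and 682 CPM. Its median of 310 CPM put it 305th of all genes. Cell 6 was highest (295 to 1344 CPM), and cells 1 and 4 were lowest. The ratio of cell 6 to cell 4 was 4.62 (1.55 to 13.5), and that of cell 2 to cell 4 was 2.75 (1.11 to 7.20). Set against Ebf2 in the same cell, Lhx2 stood at 0.375 to 0.538 in cells 2 to 6 and at 0.125 in cell 1, where it had 1 count. No pair of cells differed beyond counting error in this ratio, although most intervals are wide, such as 0.325 to 4.25 for cell 6 over cell 4.

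Ldb1, the adaptor, was far lower than Lhx2 in CPM, with 0, 1, 9, 2, 2 and 0 counts and a median of 30.9 CPM. Its highest values were 88.8 CPM in cell 5 and 73.4 CPM in cell 3. Emx2 had the fewest counts of the members, with 0, 2, 2, 2, 1 and 0 counts and a median of 24.6 CPM. For both genes fewer than 1 count was due in cells 1 and 6 at the pooled rate, so their zeros there carry little. Emx2os, an antisense gene that shares 264 exon bases with Emx2, had 1 count each in cells 3 and 4. Without a stated strand setting, reads of Emx2os and Emx2 within those shared bases cannot be told apart. Emx2os was the only one of 7 genes sharing exon bases with a member to have a count.

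Among these NFI genes, Nfib led by median CPM and in every cell but cell 1. Per kilobase of annotated exon Nfix was above Nfib, at 26.6 against 21.6 CPM per kilobase. Nfib had 2, 8, 33, 23, 16 and 5 counts in cells 1 to 6, or 232, 232, 269, 378, 710 and 426 CPM. Cell 5 was highest, with an interval of 406 to 1154 CPM. It exceeded cell 3 by 2.64 times (1.36 to 4.93) and cell 2 by 3.06 times (1.24 to 8.26). Nfix had 3, 7, 23, 7, 7 and 0 counts, or 348, 203, 188, 115, 311 and 0 CPM. In cell 6 its 0 has an upper Poisson bound of 315 CPM, and 2.21 counts were due there at the pooled rate. No pair of cells differed beyond counting error for Nfix.

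Nfia was the lowest of the 3, with 0, 4, 4, 8, 5 and 0 counts, or 0, 116, 32.6, 131, 222 and 0 CPM. It was low in cell 3, the deepest library. Cell 5 exceeded cell 3 by 6.80 times (1.46 to 34.3), and cell 4 exceeded cell 3 by 4.02 times (1.08 to 18.3). Nfib held a median of 56.1% of NFI counts, from 40.0% in cell 1 to 100% in cell 6, each from 5 counts, and from 42.1% to 60.5% in cells 2 to 5. The ratio of Nfix to Nfib did not differ beyond counting error in any of 15 pairs, although most intervals are wide.

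The balance between the families was tilted most toward NFI in cell 5. Summed NFI counts were 5, 19, 60, 38, 28 and 5, against 14, 59, 212, 70, 27 and 26 EBF counts. The ratio of NFI to EBF counts was 0.357, 0.322, 0.283, 0.543, 1.04 and 0.192 in cells 1 to 6. Cell 5 exceeded cell 6 by 5.29 times (1.67 to 20.3), cell 3 by 3.65 times (1.91 to 6.98) and cell 2 by 3.19 times (1.44 to 7.22), and cell 4 exceeded cell 3 by 1.91 times (1.14 to 3.21). The other 11 pairs did not differ beyond counting error. At gene level, Nfib over Ebf2 was 0.958 in cell 4 and 1.23 in cell 5, against 0.250 to 0.344 in the other cells, and 5 of 15 pairs differed. Over the 6 ratios examined within cells, 14 of 90 pairs had an interval that left out 1, and 9 of 36 did among cells 2 to 5. These intervals are not adjusted for their number, and no share over ratios of other genes was computed. The ratios also share counts, since Nfib and Ebf2 are part of the family sums, so their pairs are not separate results.

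**Figure D3:**
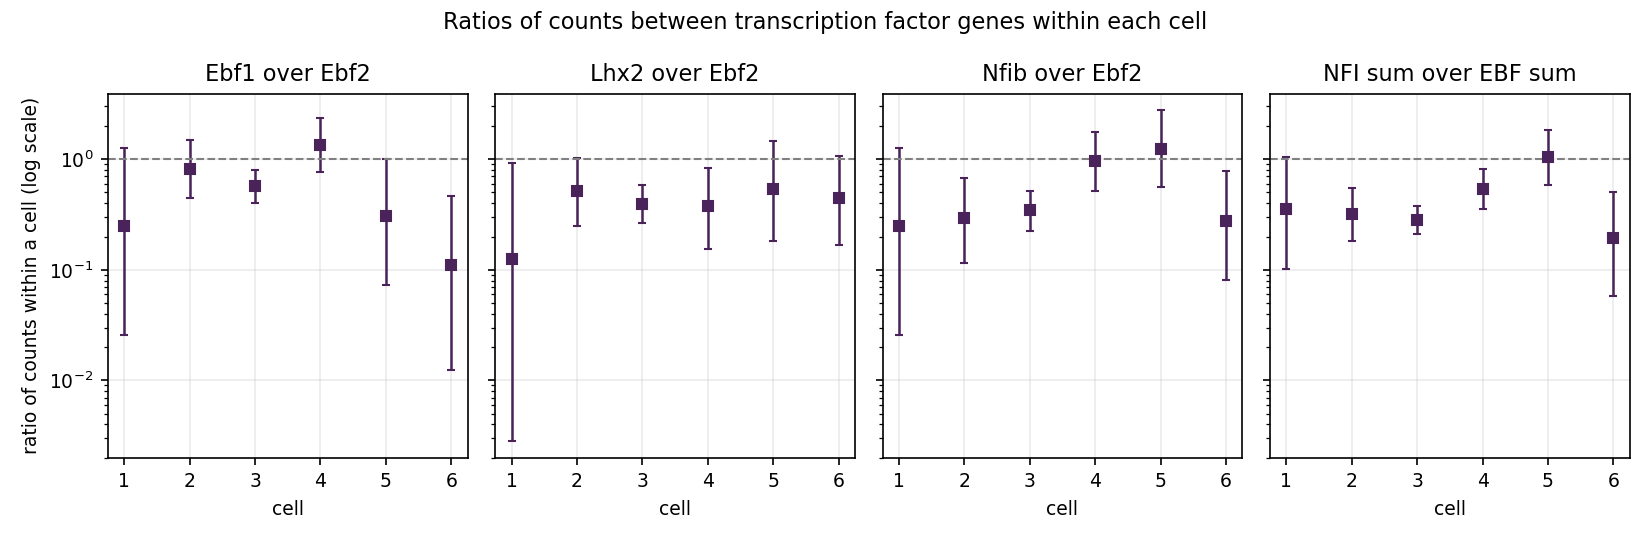
Ratio of counts between 2 genes or families within a cell (vertical, log scale) in cells 1 to 6 (horizontal), with exact 95% intervals for counting error; the dashed line marks equal counts. Ebf1 over Ebf2 runs from 0.111 in cell 6 to 1.33 in cell 4, Lhx2 over Ebf2 stays between 0.375 and 0.538 in cells 2 to 6, and NFI over EBF is highest in cell 5 at 1.04.

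The order of the cells was not resolved step by step for any gene. When the cells were ranked by CPM, no neighbouring pair differed beyond counting error in any of the 10 members. Neighbours in such a ranking are the closest values by construction, and no share over all genes was computed, so this describes resolution only. Over all pairs, 15 of 150 intervals left out 1, and they belonged to Ebf2 (6), Ebf1, Lhx2, Nfia and Nfib (2 each) and Ebf3 (1). For the 8 members averaging 50 CPM or more this is 15 of 120 pairs, or 12.5%, beside 12.7% over all 3915 genes averaging 50 CPM or more. The members' share is thus near that background, whose genes were not matched to the members for level.

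Each cell was also set against the mean of the other 5 cells, with 50 CPM added to each value, and a value was called at a 2-fold difference. Of the 48 values of the 8 members, 13 were called (27.1%), beside 41.4% over all genes, 4 of them higher and 9 lower. In cell 4, 3 members were lower (background 19.6%), namely Ebf2, Ebf3 and Lhx2 with log2 values of -1.13, -1.08 and -1.07. In cell 5, 2 were higher (background 12.7%), Nfia at 1.36 and Nfib at 1.09. In cell 6, 2 were higher (background 20.0%), Ebf2 at 1.09 and Lhx2 at 1.25. The 3 that were lower there (background 51.2%) were Ebf1 with 2 counts and Nfia and Nfix with 0. The remaining calls were Lhx2 and Nfia in cell 1 (background 44.4%), with 1 and 0 counts, and Ebf4 in cell 2 (background 24.4%), with 0. Against the pooled other cells, 6 of the 13 had an interval that left out 1. They were all those of cell 4, Nfib in cell 5, and Ebf2 and Lhx2 in cell 6. The 13 had been picked by size from the same counts, and pooling weights deep cells more than the mean does. The share over all called genes was not computed, so the 6 only describe these values. With cells 1 and 6 left out, 5 of 36 values were called, beside 29.1% over all genes. The 50 CPM filter was applied there to the remaining cells, so Ldb1 entered and the set is not the same. The median absolute log2 value was 0.56 over the members and 0.79 over all genes. As for the pairs, the background genes were not matched to the members for level. These contrasts therefore cannot show whether the members varied less between cells than other genes of similar level.

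**Figure D4:**
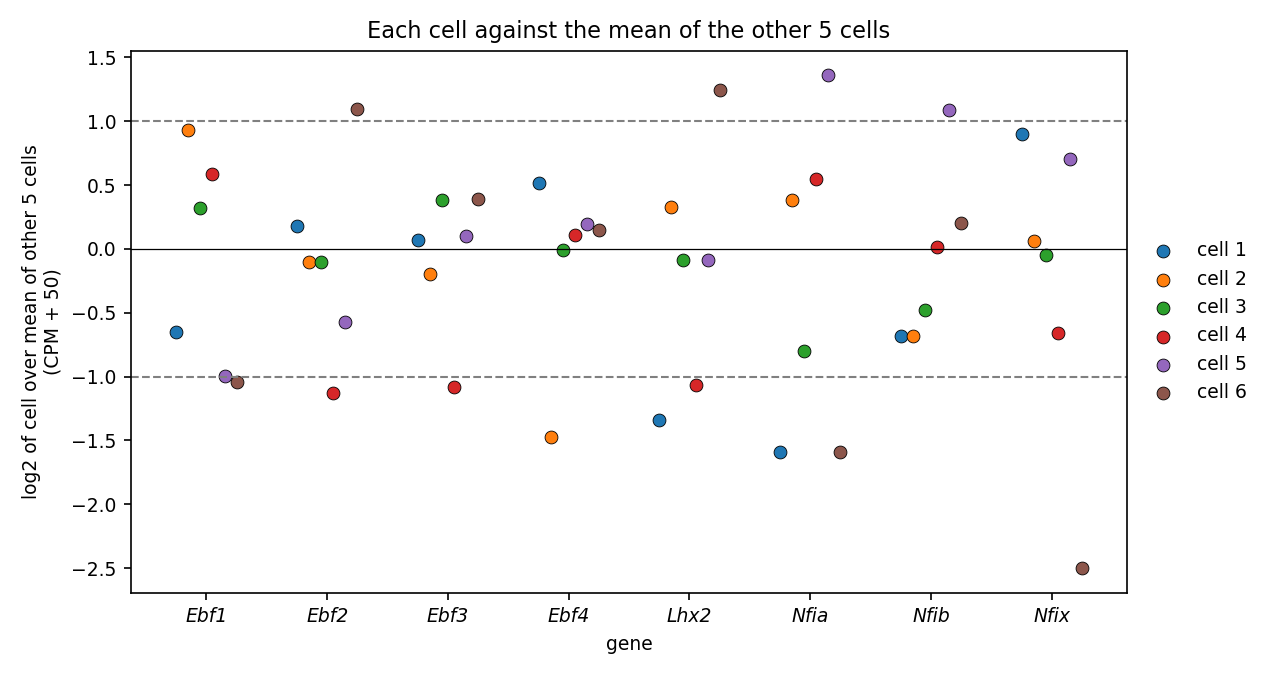
Log2 ratio between each cell and the mean of the remaining 5, with 50 CPM added (vertical), for the 8 members averaging 50 CPM or more (horizontal); colours mark cells and dashed lines a 2-fold difference. Of the 48 points 13 lie past the lines, among them Ebf2 and Lhx2 of cell 6 above, and Ebf2, Ebf3 and Lhx2 of cell 4 below.

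Other measures also differed between these cells. Cell 4, where Ebf2, Ebf3 and Lhx2 were low, had the highest sum of immature neuron markers (2791 CPM; 4 of 5 found over all cells, 581 to 2132 CPM in the other cells). Of that sum, 1708 CPM came from Stmn2. Cell 6, where Ebf2 and Lhx2 were high, had the next highest sum, 2132 CPM. Gap43 and Stmn1 were higher there, at 682 and 853 CPM (8 and 10 counts) against 213 and 558 CPM in cell 4. Stmn2 and Marcksl1 were lower in cell 6, at 597 and 0 CPM against 1708 and 312 CPM in cell 4. Cell 4 also had the highest sum of neuronal precursor factors, 312 CPM against 0 to 266 CPM elsewhere, with 10 counts of Insm1 and 9 of Sox11, while Neurog1 and Neurod1 were at 0 in all cells. Red blood cell markers were highest there too, at 12610 CPM against 171 to 4264 CPM, with Alas2 at 0 in every cell. Cell 6 had no gland marker count and 12.3% mitochondrial counts, against 14.4% in cell 1, 11.7% in cell 2 and 4.40% in cell 4. The part of these measures in the levels was not tested. When mitochondrial genes and their nuclear copies were left out of the total, the ratio of cell 6 to cell 4 was 4.54 for Ebf2 (2.32 to 8.73) and 5.38 for Lhx2 (1.81 to 15.7).

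Levels of different genes were ordered by CPM without division by length, since reads come from the 3′ end of each RNA. By median CPM the order was Ebf2, Ebf3, Ebf1, Nfib, Lhx2, Nfix, Ebf4, Nfia, Ldb1 and Emx2. Ebf3, Ebf1, Nfib and Lhx2, at 352, 341, 323 and 310 CPM, differed by less than their SD over cells (104 to 205 CPM). Places among the scarce genes depended on single cells. The median of Nfia was 74.3 CPM, but 116 CPM without cell 1, 3 or 6 and 32.6 CPM without cell 2, 4 or 5. That of Emx2 was 16.3 CPM without cell 2, 4 or 5, and without cell 3 it was 32.8 CPM, above Ldb1 at 29.0 CPM. Per kilobase of annotated exon, Ebf2 remained first, at 113 CPM per kilobase, followed by Lhx2 at 70.7 and Ebf3 at 38.1, and Nfib moved to the seventh place at 21.6.

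Few other genes of these families were detected. Of 14 further NFI, EMX, LDB and LIM homeodomain genes, 12 had no count in any cell. Nfic, the remaining NFI gene, had 1, 1, 13, 3, 1 and 0 counts and a median of 46.8 CPM. The other gene found, Lhx9, a close relative of Lhx2, had 3 counts in total and was named after its values were seen.

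Of 10 genes whose proteins bind EBF or LIM partners, 8 had a count and 1 had a count in all cells, with a summed median of 586 CPM. Ssbp3 and Ssbp2, which bind and stabilise LDB proteins, had medians of 200.4 and 116 CPM. Ssbp3 was highest in cell 6, at 682 CPM from 8 counts, and Ssbp2 had no count there. Lmo4 and Lmo2, LIM-only proteins that bind Ldb1, had 33 and 13 counts in all, and both were at 0 in cells 1 and 6. For Zfp423, a zinc finger protein that binds EBF factors and was named after its values were seen, 8 counts were found, in cells 3 and 4.

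Of 14 chromatin regulators linked to receptor choice, 14 had a count in some cell and none had one in all cells, with a summed median of 1056 CPM. The leading genes were Dnmt3a, a DNA methyltransferase (216 CPM), Atrx, a chromatin remodeller (169 CPM), Bptf, a remodelling subunit (133 CPM), and Tet3, which oxidises methylated cytosine (82.7 CPM). Dnmt3a was highest in cell 5, at 577 CPM from 13 counts, and had no count in cell 6.

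Of 4 genes with known EBF sites, Omp and Gnal were abundant in all 6 cells, and Cnga2 and Adcy3 had medians of 440.4 and 373 CPM. Omp, the olfactory marker protein, had a median of 6161 CPM (4680 to 9441), and Gnal, the olfactory G protein alpha subunit, 1612 CPM (1276 to 2131). Cnga2 ran from 0 in cell 6 to 929 CPM in cell 1. Adcy3, the adenylyl cyclase of transduction, was lowest in cell 4 (82.1 CPM) and highest in cell 1 (1509 CPM). Side by side, cell 6 had the highest EBF sum (2217 CPM; 1449 to 3249) with 0 counts of Cnga2 and 1 of Adcy3. Omp and Gnal were at 5970 and 1535 CPM in that cell, within their ranges in the other cells. Cell 4 had the lowest EBF sum (1149 CPM; 896 to 1452). Omp and Adcy3 were lowest there, at 4680 and 82.1 CPM, with Gnal at 1494 CPM and Cnga2 at 296 CPM. A link between EBF levels and these genes was not tested.

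Zone markers were sparse. Ncam2, an adhesion molecule of ventral zones, had 2, 6, 3, 0, 5 and 0 counts, with a median of 99.3 CPM. Of the dorsal markers, Nqo1 had 2 counts, both in cell 2, and Acsm4 none, while NFI counts were found in all 6 cells. The receptor with the most counts was Olfr740 in cells 1 and 2 (6386 and 5047 CPM), Olfr741 in cells 3 and 4 (3468 and 3169 CPM) and Olfr743 in cells 5 and 6 (4928 and 3667 CPM). Cells 5 and 6, with the same leading receptor, had the highest and the lowest ratio of NFI to EBF counts of the 6 cells.

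The genes most like each member were found by Pearson's r of log2(CPM + 50) over the 6 cells, among 761 other genes that averaged 100 CPM or more and had a count in every cell. With 6 cells of very different depth, high values of r arise easily, so they are given as a description. For Ebf2 the nearest were mt-Nd2 (r = 0.99), mt-Nd4 (0.99) and Gm8797 (0.98), and 5 of the 26 genes with r of at least 0.9 were mitochondrial. The share of mitochondrial genes among the 761 was not computed. For Ebf3 they were Rtp2, a chaperone of odorant receptors (0.98), Gnptg (0.97) and Tusc3 (0.95). For Ebf1 they were Rpl10-ps6 (0.96), Gm9385 (0.96) and Rpl37a (0.95), each with a single count in cells 1 and 6. Rpl10-ps6 is a pseudogene that may share reads with its parent gene. For Lhx2 they were Gm10163 (0.94), Cd81 (0.91) and Arpc1a (0.90), and for Nfib Hnrnpdl (0.98) and Mkln1 (0.95).

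In GRCm38 the members lie on 7 chromosomes and each is annotated as protein coding. Ebf1 spans 44617317 to 45008091 on the plus strand of chromosome 11, Ebf2 67233292 to 67430918 on the plus strand of chromosome 14, and Ebf3 137193673 to 137314445 on the minus strand of chromosome 7. On chromosome 2 are Ebf4 (130295169 to 130370481) and Lhx2 (38339281 to 38369733), both on the plus strand. Chromosome 19 holds Ldb1 (46031570 to 46045214, minus strand) and Emx2 (59458372 to 59465357, plus strand). Nfia (97772734 to 98118874, plus strand) and Nfib (82290173 to 82705750, minus strand) lie on chromosome 4, and Nfix (84699876 to 84800344, minus strand) on chromosome 8.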

How the data were processed

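RNA was measured in 6 single neurons, 1 library each. The authors deposited raw counts per gene symbol. Per the labels, molecular identifiers were moved to the read names and read 2 alone was aligned. Per the submitters' processing notes, CASAVA, Bowtie2 2.3.4, HTSeq and mm10 were used, with no role or order. Annotation, strand setting and collapsing of identifiers were not given in the sources used here, so a count may be a read or a molecule, and intervals may be too narrow.

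From these counts, CPM over all genes, exact 95% Poisson intervals, exact conditional intervals of ratios, Clopper-Pearson shares and conditional odds ratios between cells were computed (Python 3.11.15, scipy 1.17.1). No p-value was computed. All intervals cover counting error only, at totals of 8613 to 122546 counts. The limit for a count of 0 was the upper Poisson bound. Positions and exons came from GENCODE M21, promoters from RefSeq. Named genes were the members, family genes with 3 counts in a cell, the 4 leading genes of the cofactor and chromatin lists, target and zone genes and the 3 most similar genes per member; some of these are not reported here. Members and lists were chosen with earlier results of these data known. Alternatives covered scaling, length, pseudocount, filters, detection limits and cells left out. Leaving out cells under 20000 counts, and pair ratios without mitochondrial genes, were added after the data were seen.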

Additional observations from a re-analysis of the deposited data

Results flagged for a closer look

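Over 26 sets of 6 values (levels, sums, shares and ratios), 3 held a cell farther from the rest than Dixon's 95% limit allows. Chance alone flags about 1 in 20 separate sets of normal values with equal error. These sets share counts and their cells differ in counting error, so the 3 cannot be weighed against that rate. The summed NFI level of cell 5 was 1243 CPM (95% Poisson interval 826 to 1797, 28 counts), against 426 to 624 CPM in the other cells. Nfib made up 100% of the NFI counts of cell 6, from 5 counts, with a lower Clopper-Pearson bound of 47.8%. Ebf4 in cell 2 stood at 0 CPM, with an upper Poisson bound of 107 CPM that covers the 73.4 to 88.8 CPM of cells 3 to 6 but not the 116 CPM of cell 1, which is 1 count.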

How the results depend on the processing

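The summed level of the members, the shares of Ebf2 and Nfib in their families and the NFI to EBF ratio moved by less than 1 SD over cells under every alternative run on them. That limit was wide for the Nfib share, at 21.7 percentage points, and per kilobase of exons the share fell from 56.1% to 40.9%. The number of members found in all cells was 5 at 1 count, 2 at 3 counts and 0 at 10 counts. It was 9 of 10 with cells under 20000 counts left out, and 5 to 6 with any 1 cell left out. The number of member values past 2-fold was 13, 17 with 10 CPM added in place of 50 (background 52.7%) and 1 with 200 CPM added (background 6.82%). It was 8 of 40 without cell 6 (background 33.9%) and 8 to 14 over the cells left out in turn. Without cells 1 and 6 it was 5 of 36 (background 29.1%), with Ldb1 added by the filter. None of these backgrounds was matched to the members for level. Order among members by CPM changed with length for 9 of 10 genes, all but Ebf2. For the 8 members averaging 50 CPM or more, pairs of cells beyond counting error numbered 16 of 120 without mitochondrial genes (13.3%, beside 12.7% over all genes) and 10 of 48 among cells 2 to 5 (20.8%, beside 18.1%). No paired analysis was possible because the cells form 1 group. Depth limits cells 1 and 6, where no member had more than 18 counts. It also limits cell 5, with a total of 22525 counts, where no member had more than 16.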
